A study of Sus scrofa with 20 samples.

Results

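The macrophage and Kupffer cell genes examined here were 10 genes chosen by name, CD68, CD163, MARCO, CSF1R, CD5L, TIMD4, CD14, MSR1, SIGLEC1 and ADGRE1. A row by that name was found for 9 of the 10 among the 25764 rows of the deposited table, and CD5L was not analysed here. All 9 passed the filter on low values, and their lowest value in reads was ADGRE1 in S15, at about 3 reads (38.0 normalized counts, where 3 reads are worth 37.7).

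Kupffer cells are the resident macrophages of the liver. They sit in the sinusoids, where they take up haemoglobin, dying cells, modified lipoproteins and bacterial products from portal blood, and they depend on signalling through the receptor CSF1R. The genes examined encode the receptors that carry out this work: scavenger receptors (CD163, MARCO, MSR1), a growth factor receptor (CSF1R), receptors that recognise bacterial lipopolysaccharide, dying cells or sialic acid (CD14, TIMD4, SIGLEC1), and general macrophage markers (CD68, a lysosomal membrane glycoprotein, and ADGRE1, the adhesion receptor known in mice as F4/80).

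The study sequenced poly(A) RNA of 20 pig libraries: 5 of porcine biliary tree stem cells (pBTSCs) and 15 of cells sorted from liver. The liver libraries were labelled CD45+ (5 libraries), CD45-/EpCAM+ (4), CD45-/EpCAM- (2), CD31+ (2) and CD146+ (2), after surface proteins of leukocytes (CD45), epithelial cells (EpCAM), endothelial cells (CD31) and endothelial and mural cells (CD146). The pBTSCs came from neonatal piglets and are labelled as gallbladder, whereas the study names the gallbladder, cystic duct and common duct. The study defines biliary tree stem cells as CD45-/EpCAM+ cells, selected to lack CD45. Its methods also describe keeping selected stem cells for some hours in serum-free medium, where they formed clusters with early mesenchymal cells. The study's supplement lists a separate piglet for each pBTSC library, with S2, S7 and S11 from an H2B-GFP line, whose cells carry a histone joined to a fluorescent protein, and S15 and S20 from wild-type animals. The line and the animal of each liver library are not given in the sources used here. Libraries are called by the numbers of their labels, which the study lists as storage numbers. A storage run is the stretch of numbers from 1 pBTSC library to the next (run 1, S2 to S5; run 2, S7 to S9; run 3, S11 to S14; run 4, S15 to S19; run 5, S20 to S23), and what the libraries of a run share is not stated.

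Values are normalized counts, in which the reads of a library are scaled to make libraries comparable. They are compared between libraries but not between genes, since no gene lengths enter them. The estimated depth was 21184100 to 77827200 reads in 17 libraries, and only 1566940 in S15, 801433 in S13 and 454560 in S22, where 3 reads are worth 37.7, 77.1 and 156 normalized counts. Transcripts of the sort antigens separated the liver sorts in part. PTPRC, the gene of CD45, averaged 1454 ± 841 (SD, n = 5) in libraries labelled CD45+ and 1825 ± 1148 (n = 4) in those labelled CD45-/EpCAM+, a log2 difference of -0.24 (limma, adjusted p = 1). EPCAM was lower in both CD45-/EpCAM- libraries (491 and 1090) than in the 4 CD45-/EpCAM+ libraries (1205 to 1779), but the CD45+ libraries (1175 to 2232) were not below the latter. PECAM1, the gene of CD31, differed by 0.38 between CD31+ and CD45+ (adjusted p = 1). ALB, the albumin gene of hepatocytes, read 513084 or more in all 15 liver libraries. Group names below are therefore those of the labels.

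By group means all 9 genes were lower in pBTSCs than in each liver sort, 2.27 to 50.5 times, and none was called between the liver sorts compared, including that selected for CD45. TIMD4, MARCO, ADGRE1, CD14 and SIGLEC1 differed most and CSF1R least. Among the liver libraries, the level of each gene followed the storage run more closely than the sort.

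**Figure D1:**
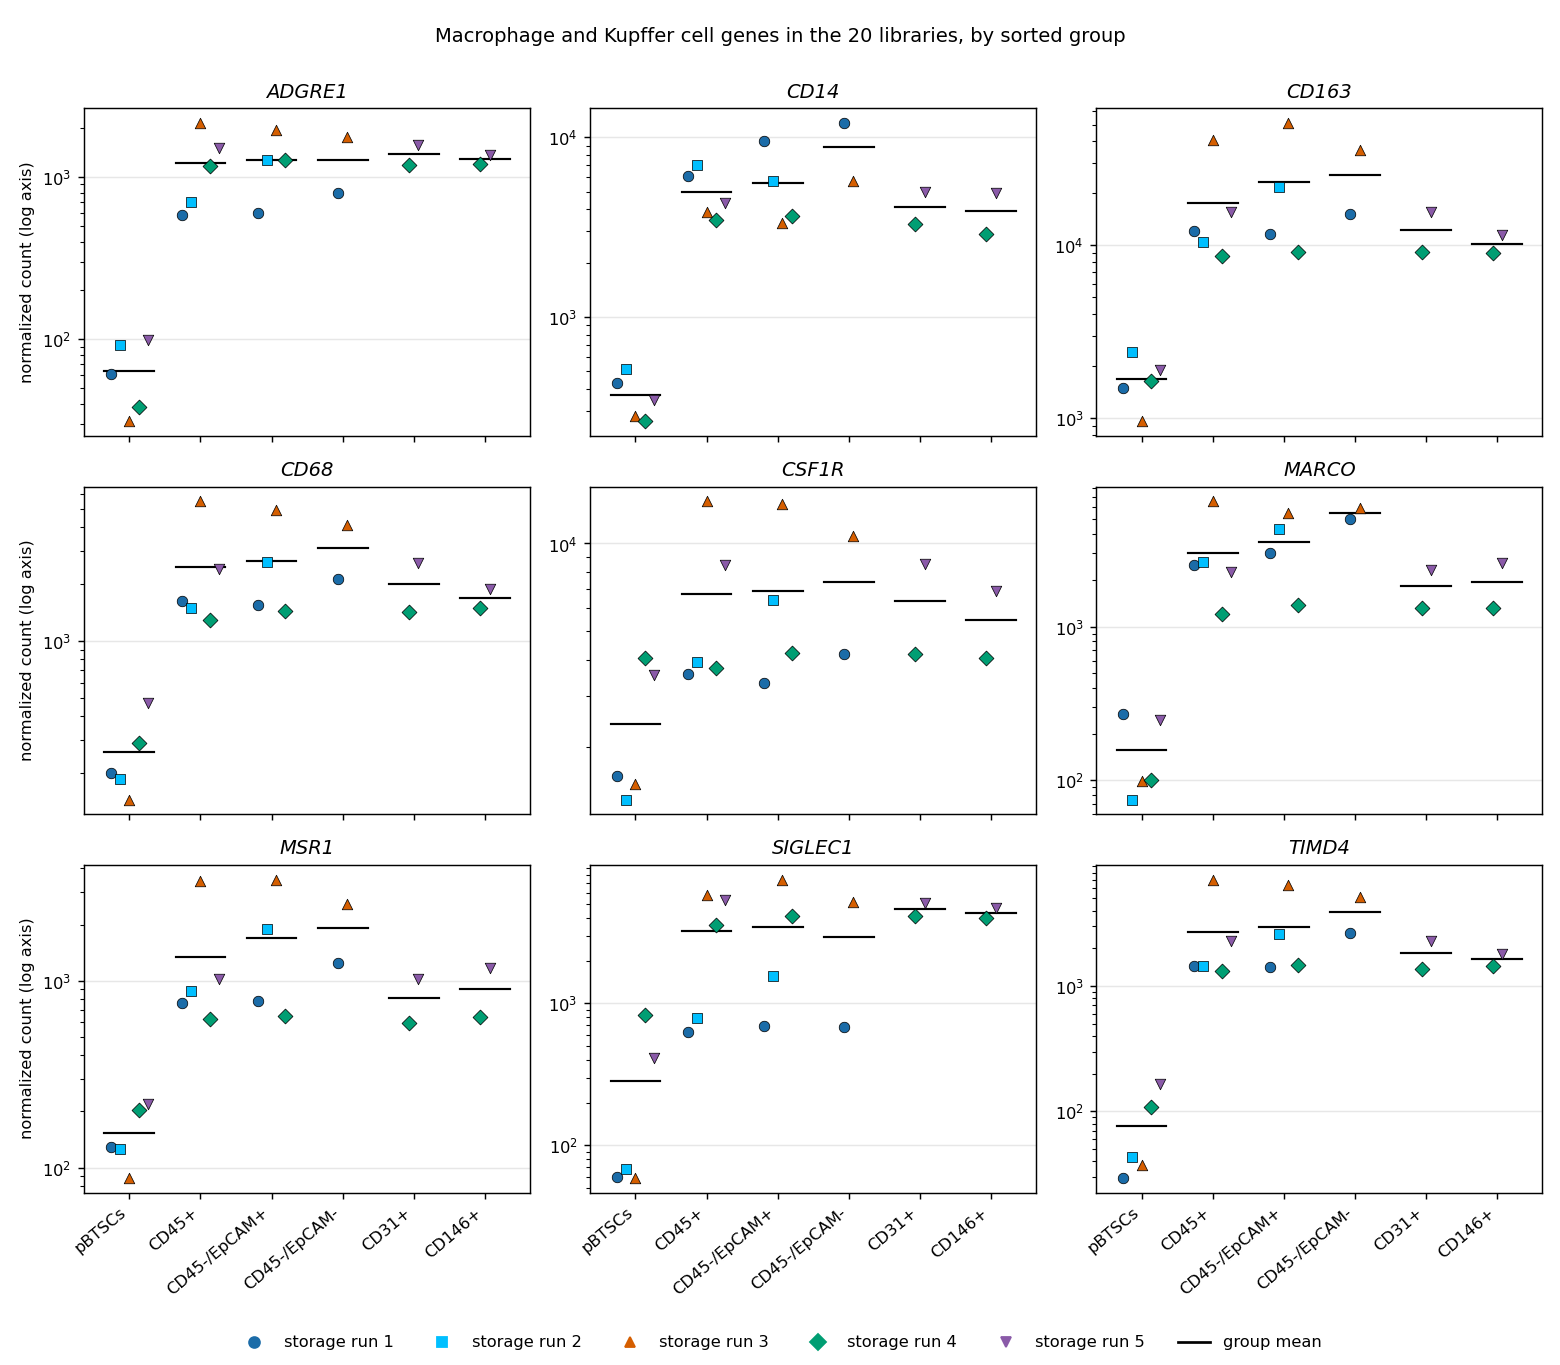
Normalized counts (log axis) of the 9 genes in each of the 20 libraries by labelled group, with the storage run as the symbol and the group mean as a line. For 7 genes every pBTSC point lies below every liver point, the exceptions being CSF1R and SIGLEC1, and within the liver sorts run 3 (triangles) is the highest for most genes.

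CD163 takes up haemoglobin bound to haptoglobin. It read 1491, 2398, 958, 1639 and 1907 in the pBTSC libraries S2, S7, S11, S15 and S20, a mean of 1679 ± 531 (SD, n = 5). The CD45+ libraries S3, S8, S12, S18 and S23 read 12119, 10434, 40930.3, 8645 and 15553, a mean of 17536 ± 13324. Every pBTSC library was thus below every CD45+ library, and S12 stood far above the other 4 of its group. In CD45-/EpCAM+ (S4, S9, S13, S19) it read 11663, 21781, 50865 and 9201, a range that overlapped that of the libraries labelled CD45+ and reached above it. The CD45-/EpCAM- libraries (S5, S14) read 15219.8 and 35636, the CD31+ libraries (S16, S21) 9085 and 15549, and the CD146+ libraries (S17, S22) 9038 and 11442. The groups of pBTSC and liver libraries did not overlap. With limma on log2(normalized count + 1), the difference of pBTSCs from CD45+ was -3.20 ± 0.46 (SE, adjusted p = 4.087e-05).

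MARCO, a collagenous scavenger receptor that binds bacteria and particles, read 269, 74.6, 97.9, 100.5 and 247 in pBTSCs (158 ± 92.3). In CD45+ it read 2531, 2634, 6528, 1212 and 2264, in CD45-/EpCAM+ 3034, 4319, 5475 and 1387, and in CD45-/EpCAM- 5052 and 5923. It was also plentiful in the endothelial sorts, at 1320.5 and 2326 in CD31+ and 1311 and 2609 in CD146+. No pBTSC library reached the lowest liver library, S18. The log2 difference was -4.23 ± 0.46 against CD45+ (limma, adjusted p = 1.848e-06) and -5.31 ± 0.61 against CD45-/EpCAM- (adjusted p = 3.737e-06).

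MSR1, the class A scavenger receptor for modified lipoproteins, read 128, 126, 88.4, 203 and 220.4 in pBTSCs (153 ± 56.0) and 764, 882, 3424, 622 and 1024 in CD45+ (1343 ± 1172). The CD45- sorts read 784, 1887, 3481 and 648 (EpCAM+) and 1248 and 2576 (EpCAM-), the CD31+ libraries 592 and 1020.5 and the CD146+ libraries 641 and 1176. The pBTSC and liver libraries did not overlap. The log2 difference from CD45+ was -2.89 ± 0.49 (limma, adjusted p = 0.000197). The call against CD146+ was lost without the 3 libraries under 2000000 reads (log2 -2.26, adjusted p = 0.09427), a fit that leaves CD146+ with S17 alone.

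CSF1R, the receptor for the ligands CSF1 and IL34 on which Kupffer cells depend, was the gene least different between pBTSCs and liver. It read 1599, 1326, 1502, 4043 and 3546 in pBTSCs, a mean of 2403 ± 1286. CD45+ libraries read 3575, 3912, 13933, 3735 and 8448 (6721 ± 4519), CD45-/EpCAM+ 3312, 6397, 13674 and 4205, and CD45-/EpCAM- 4189 and 10580.3. CD31+ read 4189 and 8523 and CD146+ 4042 and 6888. The pBTSC libraries S2, S7 and S11 were below every liver library, but S15 and S20 overlapped them. The log2 difference was -1.41 ± 0.48 against CD45+ (limma, adjusted p = 0.02926), -1.46 ± 0.50 against CD45-/EpCAM+ (adjusted p = 0.0294) and -1.63 ± 0.63 against CD45-/EpCAM- (adjusted p = 0.03963). Against CD31+ (-1.48 ± 0.63, adjusted p = 0.1272) and CD146+ (-1.30 ± 0.63, adjusted p = 0.1376) it was not called, although with array weights it was called against CD31+ (-1.74, adjusted p = 0.001053). The call against CD45+ was lost without any one of S2, S7, S11, S12 or S23, with adjusted p from 0.06584 to 0.08681, and after scaling to equal totals, with adjusted p = 0.07704. The call against CD45-/EpCAM+ was lost without any one of S2, S7, S9, S11 or S13 (adjusted p from 0.06344 to 0.1156), and that against CD45-/EpCAM- without S2, S7, S11 or S14 (0.06943 to 0.3519). Scaling to equal totals also ended both (0.09026 and 0.1621), and the latter was just past the threshold with no filter on low values (0.05049) or with eBayes without trend (0.05001).

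The ligands of CSF1R had another pattern. CSF1, made by many stromal and endothelial cells, ranged from 1879.5 to 2562 in pBTSCs (2248 ± 308, n = 5) and from 635 to 2309 in liver (1599 ± 554, n = 15). It was called higher in pBTSCs than in CD45-/EpCAM- cells (log2 1.15 ± 0.40, limma, adjusted p = 0.02292) and was not called against CD45+ (0.56 ± 0.30, adjusted p = 0.1639). IL34 read 143, 111, 155, 327 and 212 in pBTSCs and at most 51.3 in liver, with no overlap, and it was listed at 0 in the shallow libraries S13 and S22. It was called higher against CD45-/EpCAM+ (4.05 ± 0.99, adjusted p = 0.003847) but not against CD45+ (2.45 ± 0.94, adjusted p = 0.05241). Without the 3 shallow libraries both were called, at 2.68 (adjusted p = 0.0006178) and 2.23 (adjusted p = 0.0008716).

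CD14, which hands lipopolysaccharide to the receptor TLR4 and which hepatocytes can also express, read 432, 514, 282, 264 and 346 in pBTSCs (368 ± 105). It read 6088, 7039.6, 3848, 3460.4 and 4293 in CD45+ (4946 ± 1543) and 9578, 5723, 3342 and 3669 in CD45-/EpCAM+ (5578 ± 2867). CD45-/EpCAM- read 11986 and 5725, CD31+ 3302 and 4940.1, and CD146+ 2906 and 4904. The liver libraries were all above the pBTSC libraries, and this gene had the smallest standard error against CD45+, with a log2 difference of -3.74 ± 0.31 (limma, adjusted p = 1.048e-07). Of its partners, LBP, the plasma protein of hepatocytes that binds lipopolysaccharide, was called lower in pBTSCs (log2 -8.71 ± 0.78, adjusted p = 2.025e-07). TLR4 (-0.51 ± 0.39, adjusted p = 0.3456) and its co-receptor LY96 (-0.73 ± 0.29, adjusted p = 0.06454) were not called against CD45+.

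TIMD4 binds phosphatidylserine on dying cells and marks long-lived resident macrophages. It had the largest difference of the 9 genes against CD45+. It read 29.6, 43.2, 37.1, 109 and 165 in pBTSCs (76.7 ± 58.5), and 1453, 1449, 7053, 1319.6 and 2265 in CD45+ (2708 ± 2458). The other liver sorts read 1426, 2590.0, 6406 and 1459 (CD45-/EpCAM+), 2643 and 5110.4 (CD45-/EpCAM-), 1366 and 2273 (CD31+) and 1447 and 1817 (CD146+). The lowest liver library lay far above the highest pBTSC library. The log2 difference was -5.10 ± 0.54 against CD45+ (limma, adjusted p = 1.432e-06) and -5.88 ± 0.72 against CD45-/EpCAM- (adjusted p = 6.459e-06). GAS6, a bridging molecule between phosphatidylserine and the receptors MERTK and AXL, went the other way: it ranged from 1274 to 1923 in pBTSCs and from 72.1 to 582 in liver, a log2 difference from CD45+ of 2.40 ± 0.25 (adjusted p = 9.9e-07). MERTK (-0.46 ± 0.34, adjusted p = 0.3268) and AXL (0.45 ± 0.23, adjusted p = 0.1529) were not called against CD45+.

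SIGLEC1, the sialic acid receptor also called CD169, had the widest fold range of the 9 within pBTSCs, 13.9 times from lowest to highest, and within the liver libraries, 11.9 times. It read 60.2, 68.7, 59.3, 822 and 410.2 in pBTSCs (284 ± 336), a split between S2, S7 and S11 on one side and S15 and S20 on the other. CD45+ read 624, 789, 5747, 3565 and 5304 (3206 ± 2423), and CD45-/EpCAM+ 688, 1552, 7425 and 4149. CD45-/EpCAM- read 677 and 5190.2, CD31+ 4131 and 5108, and CD146+ 3973 and 4652. The liver libraries of run 1 and the CD45+ library of run 2 were below the pBTSC library S15, so the groups overlapped. The log2 difference was -3.85 ± 0.89 against CD45+ (limma, adjusted p = 0.00279) and -3.61 ± 1.17 against CD45-/EpCAM- (adjusted p = 0.01715), and the latter was lost without S14 (-2.14, adjusted p = 0.2543). SPN, a sialylated leukocyte protein that SIGLEC1 can bind, was not called against CD45+ (1.73 ± 0.83, adjusted p = 0.1188).

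CD68 read 199.8, 186, 145, 289 and 469 in pBTSCs (258 ± 129) and 1618, 1495, 5469.6, 1295 and 2403 in CD45+ (2456 ± 1736). In the other liver libraries it ranged from 1419 in S16 to 4936 in S13. The libraries did not overlap, and the log2 difference from CD45+ was -3.15 ± 0.42 (limma, adjusted p = 1.817e-05). ADGRE1 read 61.5, 91.7, 31.2, 38.0 and 98.6 in pBTSCs (64.2 ± 30.5) and 584, 703, 2147, 1172 and 1508 in CD45+ (1223 ± 635). The other liver libraries lay between 598 in S4 and 1945 in S13, again with no overlap, and the log2 difference was -4.21 ± 0.40 (adjusted p = 4.731e-07).

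Counted together, 9 of 9 genes were called lower in pBTSCs (limma, adjusted p under 0.05 and more than a 2-fold change) against CD45+, where 9.54% of all 15576 genes tested were called lower. The same count was 9 of 9 against CD45-/EpCAM+ (background 10.3%) and 9 of 9 against CD45-/EpCAM- (16.6%). It was 8 of 9 against CD31+ (7.62%) and 8 of 9 against CD146+ (7.75%), CSF1R being the exception in both. The median log2 difference of the 9 genes was -3.74 against CD45+, -3.83 against CD45-/EpCAM+, -3.86 against CD45-/EpCAM-, -3.50 against CD31+ and -3.40 against CD146+, beside medians over all genes tested of 0.07, 0.08, 0.04, 0.09 and 0.18. Without the 3 shallow libraries the counts were 9, 8, 9, 8 and 7 of 9 in the same order. Leaving out S21 reduced the count against CD31+ to 5 and leaving out S22 reduced that against CD146+ to 5, the calls lost being CD163, MSR1 and SIGLEC1 in both. Each of these fits has a sort of 1 library, which is assumed to vary like the other groups. Without S16 the SIGLEC1 call against CD31+ was lost (adjusted p = 0.05081), again against 1 library. The 5 comparisons share the pBTSC libraries and are not independent. The level of a transcript in a bulk library can differ because there are fewer cells of a type or because each holds less of the RNA, and these cannot be told apart here.

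**Figure D2:**
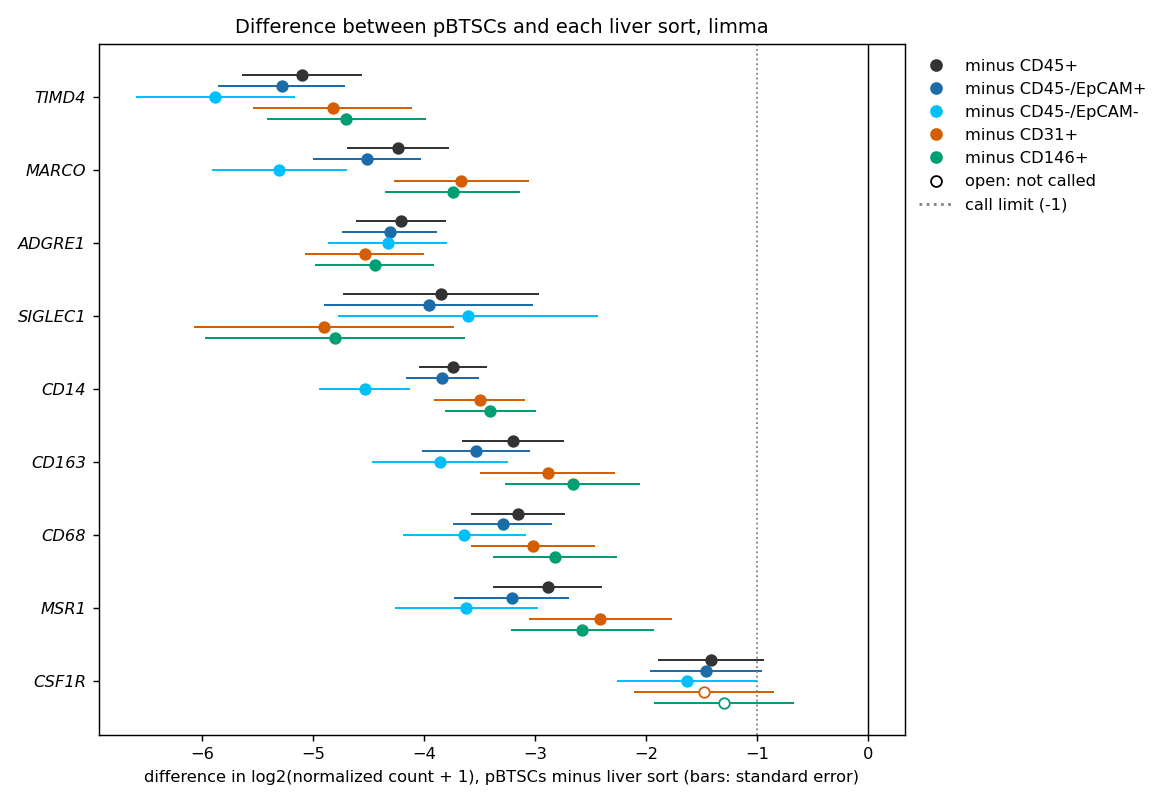
Difference in log2(normalized count + 1), pBTSCs minus each liver sort, for each gene, with the standard error as a bar, open points where the difference was not called and a dotted line at the fold limit of the call. All 45 points lie below 0, from -5.88 for TIMD4 to -1.30 for CSF1R, and only the CSF1R points for CD31+ and CD146+ are open.

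Without any fit, 7 of 9 genes had all 5 pBTSC libraries below all 15 liver libraries, which was so for 9.21% of all genes tested. The exceptions were CSF1R and SIGLEC1. When each pBTSC library was set only against the liver libraries of its own storage run, 8 of 9 genes were below every one of them in all 5 runs, against 13.7% of all genes tested. CSF1R was below them in 4 of 5 runs, and in run 4 S15 read 4043 beside 3735 to 4205 in the 4 liver libraries. The mean of the liver libraries over the pBTSC library of the same run had a median over the 5 runs of 46.7 for TIMD4 (12.8 to 166.9), 15.1 for ADGRE1 (10.8 to 62.4) and 13.6 for CD14 (12.4 to 21.3). It was 13.2 for MARCO (9.73 to 61.1), 12.2 for SIGLEC1 (4.81 to 103.3) and 8.84 for CD68 (4.88 to 33.4). The smallest medians were those of CD163 (7.43, from 5.49 to 44.4), MSR1 (7.26, from 3.08 to 35.8) and CSF1R (2.31, from 1.0 to 8.48).

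**Figure D3:**
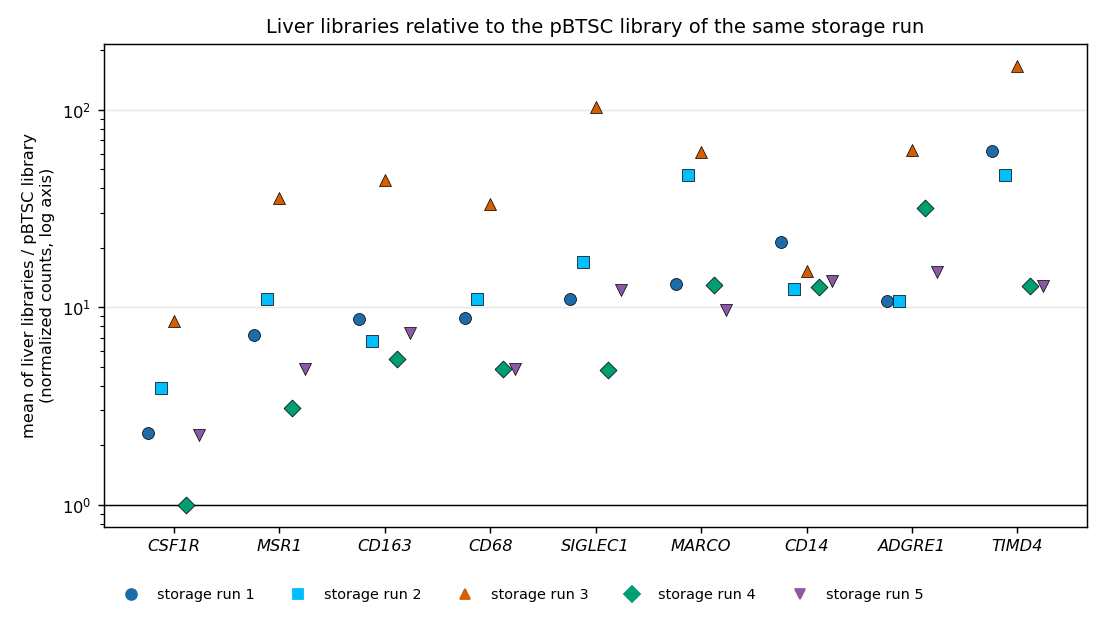
Mean normalized count of the liver libraries divided by that of the pBTSC library of the same storage run (log axis), for each gene and run, with genes ordered by the median of the 5 runs. Ratios run from 1.0 for CSF1R in run 4 to 166.9 for TIMD4 in run 3, and run 3 gives the highest ratio for every gene except CD14.

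The pBTSC libraries differed among themselves. CD68, CSF1R, TIMD4, MSR1 and SIGLEC1 were higher in both S15 and S20 than in each of S2, S7 and S11, by means 2.14, 2.57, 3.73, 1.85 and 9.82 times, respectively. CD163, MARCO, CD14 and ADGRE1 overlapped between these libraries. The share of all genes separated in this way was not computed, so the split is not shown to be particular to these genes. S15 and S20 are also those with the most ALB transcript, up to 25087 normalized counts beside 287 to 376 in the other 3, S15 is a shallow library, and both are from wild-type piglets while the other 3 are from the H2B-GFP line. The RNA integrity listed in the study's supplement was higher for S20 than for S2, S7 and S11, and none is listed for S15 or any liver library. The part of these in the difference was not tested.

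Among the liver sorts no gene of the 9 was called. CD45+ minus CD45-/EpCAM+, whose labels differ in the CD45 antigen, gave log2 differences from -0.33 to -0.05 (limma, adjusted p = 1 for all 9), and 0% of all 15576 genes were called. At an unadjusted p under 0.05 there were 214 genes. CD45+ minus CD45-/EpCAM- gave -1.07 to 0.24 with adjusted p from 0.2255 to 0.9259, while 7.25% of all genes were called. CD31+ minus CD45+ gave -0.57 to 1.05 (adjusted p = 1), with 0% of all genes called and 33 at an unadjusted p under 0.05. CD146+ minus CD45+ gave -0.54 to 0.96 (adjusted p from 0.6849 to 0.9394), with 0% called and 2158 at an unadjusted p under 0.05. CD31+ and CD146+ libraries exist only in runs 4 and 5. With storage run as a term in the fit, the SIGLEC1 difference turned from 1.05 to -0.22 for CD31+ minus CD45+, from 0.96 to -0.31 for CD146+ minus CD45+ and from 0.24 to -0.42 for CD45+ minus CD45-/EpCAM-, none of them called. For CD31+ minus CD45+ CSF1R also turned, from 0.06 to -0.20, and CD14 from -0.24 to 0.02.

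By order of group means, pBTSCs were lowest for 9 of 9 genes. CD45-/EpCAM- was highest for 7 genes and CD31+ for SIGLEC1 and ADGRE1. CD45-/EpCAM- libraries exist only in run 1 (S5) and run 3 (S14). Within run 1 S5 read the most of these 7 genes among the liver libraries. Within run 3, however, S14 read the least of CD68, CD163, CSF1R, TIMD4 and MSR1, though the most of CD14. Within run 5 the CD45+ library S23 read more SIGLEC1 (5304) than the CD31+ library S21 (5108). The highest liver mean was 1.13 times the lowest for ADGRE1 and 3.01 times for MARCO, the extremes of the 9. No difference of CD45+ from the other liver sorts was called for these genes, and the other sorts were not tested against each other. MARCO was higher in both CD45-/EpCAM- libraries than in the CD31+ and CD146+ libraries. No run holds CD45-/EpCAM- together with CD31+ or CD146+ libraries, so sort and run cannot be told apart for this difference. The CD45-/EpCAM- libraries also held transcripts of other blood cells: the sum of 7 erythroid genes was 194652 to 885907 there and 1549 to 16151 in CD45+, and the sum of 9 monocyte and neutrophil genes was 15726 to 67052 and 1448 to 6651. Their part in the levels of the 9 genes was not tested.

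The storage run accounted for 80.4% (CD14) to 97.2% (SIGLEC1) of the sum of squares of log2(normalized count + 1) over the 15 liver libraries. The median over all genes was 61.3%. The sort, which also has 5 levels, accounted for 1.65% (CSF1R) to 37.4% (MARCO), beside a median of 37.5% over all genes. Each share was computed alone. The sorts are not spread evenly over the runs, so the shares overlap and are not separate contributions. With 5 levels over 15 libraries, part of each share arises by chance. With only the 13 liver libraries above 2000000 reads the ranges were 82.5% to 97.4% for the run and 6.98% to 45.2% for the sort, beside medians over all genes of 72.1% and 41.3%. In those libraries CD14 (45.2%) and MARCO (45.1%) were above the median for the sort.

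**Figure D4:**
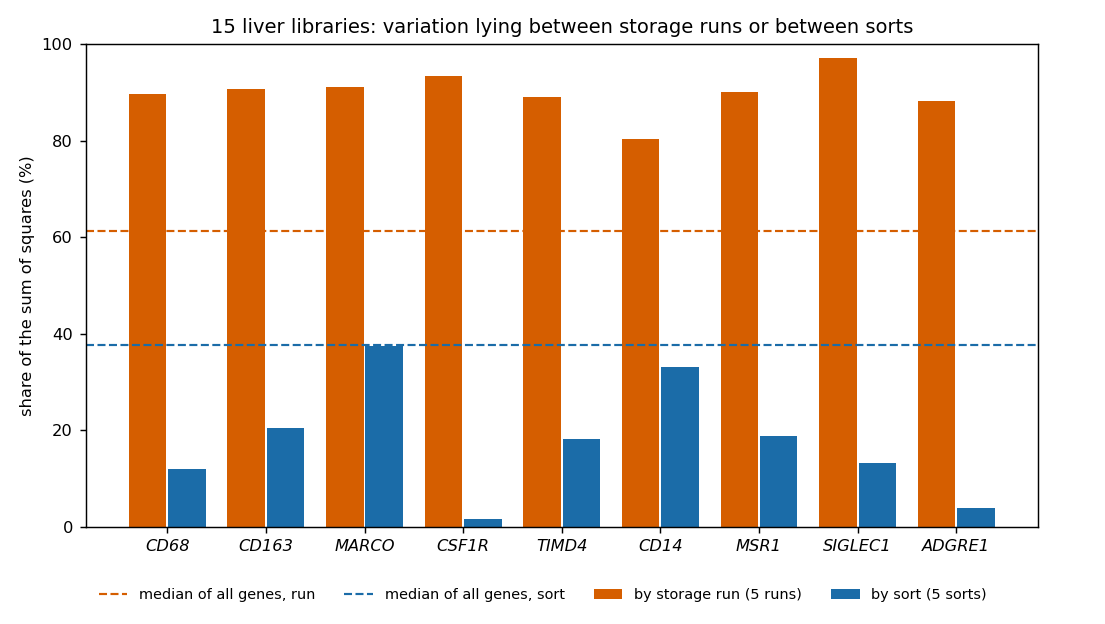
Share of the sum of squares of log2(normalized count + 1) over the 15 liver libraries that lies between storage runs (5 runs) or between sorts (5 sorts), for each gene, with dashed lines at the medians over all genes (61.3% and 37.5%). Every gene lies above the run median, from 80.4% for CD14 to 97.2% for SIGLEC1, and over these 15 libraries none lies above the sort median. The shares by run and by sort were each computed alone and overlap.

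Run 3 (S12, S13 and S14) had the highest liver mean for 8 genes. CD163 averaged 42477 in run 3 and 8992 in run 4, TIMD4 6189.8 and 1398, and MSR1 3160.0 and 625. CD14 had another order, highest in run 1 at 9217 and lowest in run 4 at 3335. SIGLEC1 was lowest in run 1 at 663 and highest in run 3 at 6120.5, with run 5 at 5021 in between. The highest run mean was 2.76 to 9.23 times the lowest, whereas libraries of 1 run, which belong to different sorts, differed by at most 2.14 times (MSR1 in run 2). In run 4, which holds CD31+, CD146+, CD45+ and CD45-/EpCAM+ libraries, they differed by 1.06 to 1.26 times. The level in CD45+ was below that in CD45-/EpCAM+ of the same run for 5 of 9 genes in run 1, 8 in run 2, 3 in run 3 and 9 in run 4. Each count sets 1 library against 1, and in run 4 the ratios were only 0.86 to 0.96. The share of all genes below was not computed, so these counts are not a result about the 9 genes.

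Libraries S3 to S14 were also set against S16 to S23 within the CD45+ and CD45-/EpCAM+ sorts (6 against 3 libraries). None of the 9 genes was called, where 5.1% of 14655 genes were. MARCO had the largest positive difference of the 9 (log2 1.28 ± 0.36, limma, adjusted p = 0.05106), and it passed without S13, with 1 of 9 genes then called higher. SIGLEC1 had -1.40 ± 0.87 (adjusted p = 0.32). The difference of CD45+ from CD45-/EpCAM+ was not shown to change between the storage ranges (adjusted p = 0.9999 for all 9, and 0% of all genes called, with 61 at an unadjusted p under 0.05).

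The genes moved together only in part. Over the 15 liver libraries the 36 pairs had a median Pearson r of 0.682, from -0.80 for CD14 with SIGLEC1 to 0.986. CD14 with ADGRE1 had -0.63. Libraries of a run share whatever that run has in common, so these values describe the libraries. Over the 17 libraries above 2000000 reads, which fall into pBTSC and liver sets, the median was 0.903 (0.637 to 0.991). In those 17 libraries and among 13274 named genes, the gene most like CD68 and TIMD4 was GPR31 (r = 0.993 and 0.990), that most like CD163 was LGMN, a lysosomal protease (0.981), and that most like MSR1 was CTSD, another lysosomal protease (0.982). SIGLEC1 was most like MRC1, the mannose receptor (0.989), CSF1R most like LCP2, a leukocyte adaptor protein (0.971), and ADGRE1 most like ALKAL2 (0.989). MARCO was most like CCDC115 (0.98) and CD14 most like SLC39A5, a zinc transporter (0.995). Over the 13 liver libraries among them CD14 was again most like SLC39A5 (0.990), but the gene most like each of the others was another: ZNF385A for CD68 (0.978), IL10RA for CD163 (0.98), DENND1C for MARCO (0.990), PID1 for CSF1R (0.982), ARHGAP4 for TIMD4 (0.995), GRB2 for MSR1 (0.984), CLEC4F for SIGLEC1 (0.988) and TFEC for ADGRE1 (0.976). Over the 17 libraries the genes most like the mean of the 9 were GPR31 (0.992), C1QC (0.989), MB21D2 (0.986), VSIG4 (0.985) and CABYR (0.984), of which C1QC encodes a complement chain and VSIG4 a complement receptor of Kupffer cells.

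Other genes of resident macrophages were lower in pBTSCs too. Of 14 tested against CD45+, 11 were called lower, where 9.54% of all genes were, and 1 higher, where 11% were, and their median log2 difference was -2.58. CLEC4F, a lectin of Kupffer cells, had -6.65 ± 1.18 (limma, adjusted p = 0.0003217), MRC1 -3.33 ± 0.48 (adjusted p = 4.195e-05) and the complement gene C1QA -3.27 ± 0.50 (adjusted p = 7.077e-05). The other complement chains, C1QC and C1QB, had -2.97 and -2.81 (adjusted p = 0.0001084 and 0.0002723). Without the 3 shallow libraries 12 of 14 were lower. The exception was LYZ, the lysozyme gene, which many secretory cells also express, at 2.65 ± 0.66 (adjusted p = 0.004864). FOLR2, a folate receptor of resident macrophages (-0.07 ± 0.51, adjusted p = 0.9374), and CD86 (-1.12 ± 0.45, adjusted p = 0.06595) were not called. Of the same 14 genes, 12 were lower against CD45-/EpCAM+, 12 against CD45-/EpCAM-, 8 against CD31+ and 8 against CD146+.

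Of 12 ligands, co-receptors and partners of the 9 genes, 4 were called lower and 1 higher against CD45+ (median -0.48). Besides LBP, those lower were genes of haem and iron handling, and which cells held their transcripts was not tested. They were HMOX1, the inducible haem oxygenase (-3.81 ± 0.57, limma, adjusted p = 5.974e-05), SLC40A1, the iron exporter ferroportin (-2.70 ± 0.23, adjusted p = 1.572e-07), and BLVRB, a biliverdin reductase (-2.45 ± 0.41, adjusted p = 0.0001639). GAS6 was the higher one. Over all genes tested, 9.54% were called lower and 11% higher in pBTSCs than in CD45+. Of 8 transcription factors of macrophages, 3 were called lower and none higher (median -0.86), namely NR1H3, the liver X receptor alpha (-2.72 ± 0.35, adjusted p = 1.241e-05), MAF (-2.26 ± 0.42, adjusted p = 0.0004249) and CEBPA, which hepatocytes also use (-1.52 ± 0.32, adjusted p = 0.001407). SPI1, the factor PU.1 of all macrophages, had -1.22 ± 0.49 (limma, adjusted p = 0.06695). Without the 3 shallow libraries it was just within the threshold (-1.32, adjusted p = 0.0489), and 4 of 8 factors were called lower.

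Genes of other leukocytes had other directions. Over all genes tested, 11% were called higher in pBTSCs than in CD45+ and 9.54% lower. Of 9 monocyte and neutrophil genes tested against CD45+, 3 were called higher in pBTSCs and none lower (median 0.89), CCR2, the monocyte chemokine receptor, at 3.34 ± 0.66 (limma, adjusted p = 0.0008701), CSF3R at 2.62 ± 0.87 (adjusted p = 0.02839) and VCAN at 1.37 ± 0.22 (adjusted p = 0.000103). Which cells held the VCAN transcript, the only one of this list also called higher against CD45-/EpCAM-, was not tested. Of 10 lymphocyte genes, 4 were called higher and none lower (median 1.65), and 7 were called higher without the 3 shallow libraries. IL7R led at 5.03 ± 0.69 (limma, adjusted p = 2.539e-05). It read only 0 to 3.60 in the CD45+ libraries, close to the floor, so the size of its difference is uncertain. The T cell genes followed, CD2 at 2.36, CD3D at 2.28 and CD3E at 1.95 (adjusted p = 0.03522, 0.02335 and 0.02624). Of 6 pan-leukocyte genes, 2 were called lower, ITGB2 (-1.32 ± 0.42, adjusted p = 0.02265) and LCP1 (-1.19 ± 0.45, adjusted p = 0.04963), and PTPRC had -0.24 ± 0.53 (adjusted p = 0.7755). Against CD45-/EpCAM- the monocyte and neutrophil genes turned, with 4 of 9 lower (16.6% of all genes) and 1 higher (20%). The granule protease ELANE had -6.83 ± 2.09 (limma, adjusted p = 0.01215) and the peroxidase MPO -5.47 ± 2.16 (adjusted p = 0.04364). S100A9 and S100A8 had -4.69 and -4.68 (adjusted p = 0.01725 and 0.008707), while VCAN was higher (1.76 ± 0.28, adjusted p = 9.609e-05). Without the 3 shallow libraries 3 of 9 were lower, and MPO was not called (-5.05, adjusted p = 0.08684).

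Genes of the other cell types of the organs moved with the same comparison, in which 9.54% of all genes were called lower and 11% higher. Of 7 hepatocyte genes, 6 were called lower in pBTSCs than in CD45+ (median -4.28), ALB at -8.89 ± 1.17 (limma, adjusted p = 1.514e-05), and the sum of the 7 was 30817 to 75350.4 in pBTSCs and 924775 or more in each liver library. The next by size were TTR at -8.18, TF at -6.78, SERPINA1 at -4.28 and HNF4A at -1.82. Of 7 stellate cell and fibroblast genes, 5 were called higher (median 3.26), DCN at 3.56, COL1A1 at 3.44, COL3A1 at 3.32, COL1A2 at 3.26 and PDGFRA at 1.32. Of 9 endothelial genes, 4 were called lower, among them the sinusoidal CLEC4G at -7.20 and STAB2 at -7.03 with LYVE1 at -1.60 and STAB1 at -1.34, and VWF was called higher at 2.12. Of 7 erythroid genes, ALAS2 (3.33) and HBB (3.27) were called higher, and of 4 biliary epithelial genes CFTR was called lower at -1.15. The part of these cell types in the levels of the macrophage genes was not tested.

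**Figure D5:**
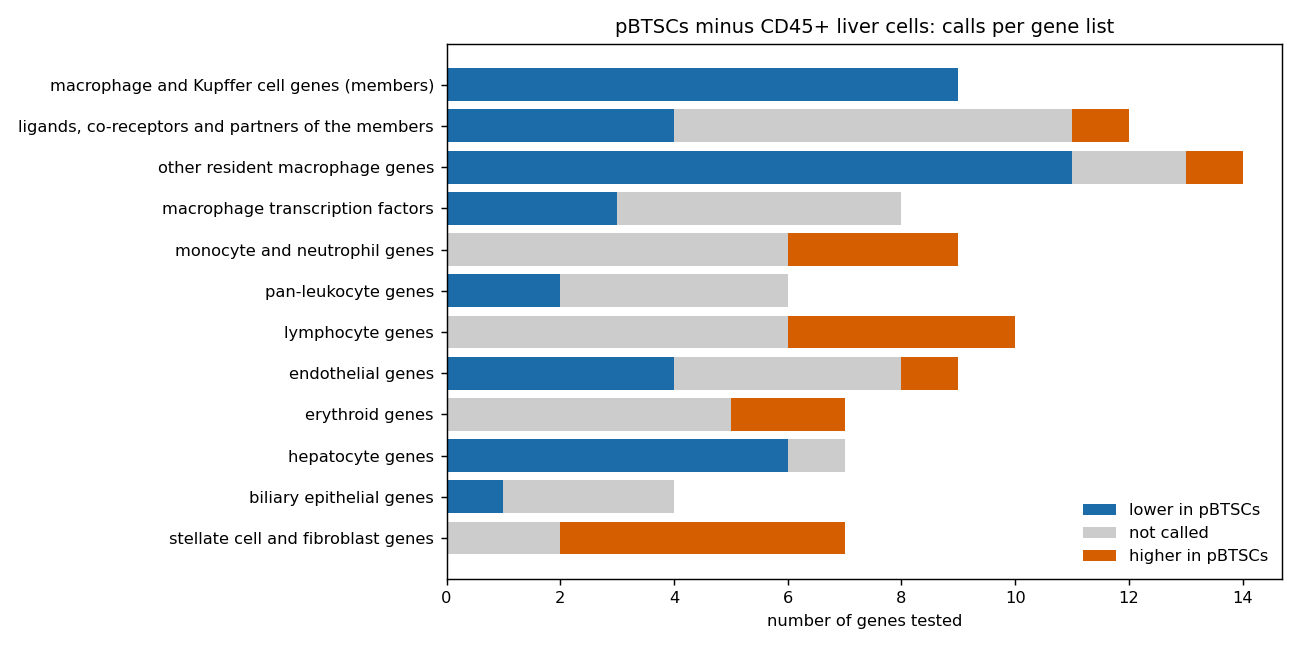
Number of genes of each list called lower, not called or called higher in pBTSCs against CD45+ liver cells. The 9 macrophage and Kupffer cell genes were all called lower and 11 of 14 other resident macrophage genes were, whereas none of 9 monocyte and neutrophil genes and none of 10 lymphocyte genes was called lower.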

How the data were processed

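The data are 1 table of normalized counts that the authors deposited, a signal with no value below 0. It has 25764 rows, of which 7782 carry no gene name. RNA was extracted with Qiagen RNeasy and made into Illumina TruSeq Stranded mRNA libraries. The submitters' processing notes name STAR, Salmon and DESeq2. Versions, genome build and annotation are not given in the sources used here, so no coordinates are printed. Read-count tests were not run, since only 60.4% to 84.3% of a library's low values were whole numbers of reads to within 0.05. Depth was estimated from the value of 1 read, and floors of 3 reads cover counting error only.

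Tests used log2(normalized count + 1) of the deposited values in limma 3.58.1 under R 4.3.3, by lmFit and eBayes with trend, with p-values adjusted over all genes after Benjamini and Hochberg. The fit held all 6 groups and the 15576 genes that reached 10 normalized counts in 2 or more libraries. Calls needed an adjusted p-value under 0.05 together with more than a 2-fold change. Fold changes on this scale understate low genes, but a 0 in a shallow library can overstate them, as for IL34 above. The script was tested on simulated data. Summaries were made in Python 3.11.15 (numpy 2.4.6, pandas 2.3.3) and figures in matplotlib 3.10.9.

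Groups came from the deposited labels. The donors of the liver libraries are not stated, so libraries were not paired, and p-values measure only the spread between these libraries, which may be technical. The closest pair of libraries of 1 sort (S17 and S22) differed by 1.61 times counting noise, so none were counted as 1, while S21 and S22, of different sorts in run 5, differed by 1.16 times. S22 is shallow, so its counting noise is large and both ratios are low for that reason. With both libraries deep, the closest pair of 1 sort was S18 and S23, at 3.28 times. Every gene of the list with a row is named. From the other lists, called genes were named, up to 5 by size of difference, and any further gene named was chosen after its values were seen. The genes and lists were chosen with earlier results of these data known. The analysis was repeated with changed pseudocounts, scalings, low-value filters, array weights and models, and without each library. Leaving out each storage run, and comparisons within a run, were chosen after seeing the data.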

Additional observations from a re-analysis of the deposited data

Results flagged for a closer look

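The CD45+ library S12 was far above the other 4 libraries of its group for 5 of the 9 genes, by Dixon's test of the gap to the nearest library. That test used normalized counts without a log. It was not run on the log2 scale of the other tests, where a gap at the high end is a smaller part of the range. It read 5469.62 for CD68, 40930.3 for CD163, 6528.2 for MARCO, 7053.49 for TIMD4 and 3423.59 for MSR1. Chance marks about 1 in 20 groups if the values are normally spread, which was not tested, and the 5 values come from the same library. S13 and S14 of the same storage run, which belong to other sorts, read 6406 and 5110.4 for TIMD4 and 50865 and 35636 for CD163.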

How the results depend on the processing

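The 9 genes were lower in pBTSCs in all 125 alternative fits of the 5 comparisons. CD68, MARCO, TIMD4, CD14 and ADGRE1 kept every call, while calls were lost in 29 fits for CSF1R, 8 for SIGLEC1, 6 for MSR1 and 5 for CD163. The labels give no replicate numbers or donors that link the groups. With storage run as a term in the fit, no call of the 9 genes changed. The only signs that turned were the 5 uncalled ones between liver sorts given above. In that fit CD14 for CD45+ minus CD45-/EpCAM- had -0.75 ± 0.19 (limma, adjusted p = 0.02304), short of the 2-fold limit of a call. The 3 shallow libraries limit what S13, S15 and S22 can show. Unless a sentence shows it, the cause was not tested.

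Scaling to equal totals moved the median of all genes from 0.07 to 0.31 against CD45+, 0.08 to 0.39 against CD45-/EpCAM+, 0.04 to 0.51 against CD45-/EpCAM-, 0.09 to 0.38 against CD31+ and 0.18 to 0.46 against CD146+. The share of calls that were higher in pBTSCs moved from 53.6% to 66.8%, 58.9% to 72.5%, 54.6% to 75.4%, 46.9% to 61.7% and 65.1% to 76.0%, respectively, and that in CD45+ against CD45-/EpCAM- from 75.0% to 88.2%.

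Leaving out 1 library gave 3390 to 5862 calls against CD45-/EpCAM-, 1018 to 2158 against CD31+ and 1152 to 4587 against CD146+, with 5 to 8 of the 9 genes called lower in both of the latter. It gave 11 to 2023 calls for CD45+ minus CD45-/EpCAM-, 0 to 2027 for CD146+ minus CD45+ (2027 without S17) and 83 to 1230 for S3 to S14 minus S16 to S23, with 0 to 1 genes called higher there.

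Without storage run 1 there were 3086 calls against CD45-/EpCAM- and 2 for CD45+ minus CD45-/EpCAM-. Without run 5 there were 1055 against CD31+ and 987 against CD146+, with 5 of the 9 genes lower in each, and 731 for CD45+ minus CD45-/EpCAM-, which had 2493 without run 3 and 714 with the 2 groups alone in the fit. CD146+ minus CD45+ had 1949 without run 4, and CD31+ minus CD45+ had 2 with no filter on low values. Array weights gave 3805 calls against CD31+ and 1683 against CD146+, with 5 of the 9 genes lower there, and 1554 were called against CD146+ without the shallow libraries.

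For S3 to S14 minus S16 to S23, array weights gave 1873 calls, leaving out the shallow libraries 1230, and leaving out runs 2, 3, 4 and 5 gave 154, 1621, 5 and 426. MARCO was then the 1 gene called higher with pseudocount 10, equal upper quartiles, array weights, without the shallow libraries, without S13 and without storage run 1, and SIGLEC1 the 1 called lower with array weights and without storage run 3.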
